A study of Caenorhabditis elegans with 6 samples.

Results

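The genes described here encode the major sperm proteins and the other sperm-specific families of *Caenorhabditis elegans*, and comprise 84 of the 45461 genes in the count tables. They were chosen by name: protein-coding genes whose WormBase symbol starts with msp- (31 genes), nspd- (10), ssp- (12), smz- (2) or spe- (29), matched to the count tables by sequence name. The rule uses no measured value, but it was written with results of these data known, so that the levels below are a description and the p-values come only from a fit across all tested genes. A *C. elegans* hermaphrodite makes a limited supply of sperm in late larval life, switches to oocytes as it becomes an adult, and keeps its sperm in the spermathecae, beyond the part of the gonad sampled here. The major sperm proteins (MSPs) build the cytoskeleton on which the amoeboid nematode sperm crawls, and are also released from sperm as the signal for oocyte maturation and ovulation. The nspd genes encode short nematode-specific peptides, the ssp genes encode small proteins related to the MSP domain, the smz genes encode PDZ domain proteins of sperm meiosis, and the spe genes are a mixed class, named for mutants with defective spermatogenesis.

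Total RNA of hermaphrodite germlines was sequenced in 3 groups of 2 libraries, all from day 1 adults kept at 24 °C, to ask whether germlines built from sperm chromosomes alone express their genes as control germlines do. Control germlines came from strain HBR1280, which carries oxTi75, a GFP-tagged histone H2B driven by the eft-3 promoter with unc-18(+), and had inherited the chromosomes of sperm and oocyte alike. The “red-head” worms were F1 hermaphrodites from a cross of HBR1280 males with hermaphrodites of HBR1281, a strain with oxTi411 (a TdTomato-tagged H2B, also driven by eft-3, with Cbr-unc-119(+)) and ddIs32 (yfp::gpr-1), whose excess of GPR-1 pulls the parental pronuclei apart. The germlines of these mosaic worms inherited sperm chromosomes only, while other cells of the same worm carry oocyte chromosomes. Offspring germlines were those of the next generation (F2), and germlines of all 3 groups share the HBR1280 genotype, oxTi75 included. Each library pooled 20 to 100 distal gonad arms, cut at the late-pachytene bend.

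Counts on genes ranged from 2721055 in “red-head” replicate 2 to 11310273 in “red-head” replicate 1, so that 3 reads, the floor used here, stood for 0.265 to 1.10 CPM, the count of a gene scaled to a common library total. All CPM of the sperm genes below were also scaled by edgeR's TMM factors. Both libraries of a group were given as biological replicates, with no word on whether they came from separate cultures, so that a p-value may measure technical spread. The library names carry tags of unstated meaning. Control replicate 1 and offspring replicate 1 share one, “red-head” replicate 2 and offspring replicate 2 share another, but none of the tags covers control and “red-head” libraries together. Germ cell markers summed to 2125 to 3326 CPM and oocyte markers to 9500 to 12607 CPM. The 4 spermatheca markers summed to 1438 to 2064 CPM, nearly all of it from fln-1, a filamin gene, at 1520 and 1492 CPM for control, 1542 and 2062 CPM for “red-head” and 1436 and 1842 CPM for offspring libraries, so that both “red-head” values lay above both control values. Of the others, sth-1 had 1 and 2 reads in control and none elsewhere, fkh-6 had 0 to 3 and ipp-5 0 to 5 reads in any library. The 6 intestine markers, yolk protein genes among them, summed to 330 and 252 CPM in control, against 2555 and 4617 CPM in the “red-head” and 833 and 143 CPM in the offspring libraries, and the lower “red-head” value of each of the 6 exceeded its higher control value. The part of these markers in the results below was not tested.

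None of the 84 genes lies on the X chromosome, which holds 13.63% of the 19271 protein-coding genes matched to the annotation. The 31 msp genes lie on chromosomes II (13) and IV (18), and 28 of them have the same transcript length, 384 nucleotides. The families nspd, ssp and smz lie on chromosomes I to V, with transcripts of 213 to 222, 324 to 451 and 1059 to 1149 nucleotides, and the spe genes range from 343 to 3889 nucleotides. How reads that fit several near-identical msp copies were handled before counting is not given in the sources used here, so the value of any one msp gene is uncertain and the family sum is the safer measure. Of the spe genes, 10 share 0.395% to 34.1% of their exonic length with another gene, most in spe-29, which overlaps gon-1. Because strand was not recorded as far as the sources say, reads in those stretches cannot be assigned with certainty.

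The RNA of the msp family was much lower in “red-head” than in control germlines. Summed over 31 genes, msp reads numbered 707 and 220 for control, 24 and 23 for “red-head”, and 328 and 35 for offspring libraries. After scaling for library size this gave 95.0 CPM (95% exact Poisson interval 88.2 to 102) and 43.1 CPM (37.6 to 49.2) for the controls. The “red-head” libraries had 1.99 CPM (1.28 to 2.97) and 8.54 CPM (5.42 to 12.8), and the offspring libraries 47.5 CPM (42.5 to 52.9) and 10.1 CPM (7.01 to 14.0). Both “red-head” libraries lay below both control libraries, while of the offspring libraries replicate 1 reached the level of a control and replicate 2 came close to a “red-head” library. The mean of control germlines was 69.1 ± 36.7 CPM, that of “red-head” germlines 5.27 ± 4.63 CPM and that of offspring germlines 28.8 ± 26.5 CPM (SD, n = 2 each). Pooled levels, here and below, sum reads and scaled library sizes over a group, so that the deeper library weighs more. Pooling thus gives a larger ratio here than the means do. The pooled control level was 23.2-fold that of “red-head” germlines, with a 95% exact interval of 17.3 to 31.8. These intervals cover counting error only, and the libraries within a group differed by more than that: 2.20-fold between the controls, 4.29-fold between the “red-head” libraries and 4.72-fold between the offspring libraries. Without control replicate 1 the ratio of control to “red-head” was 13.5-fold (9.83 to 18.95), and without “red-head” replicate 1 it was 8.65-fold (5.73 to 13.7), whereas without “red-head” replicate 2 it was 37.1-fold (24.8 to 58.2). With 2 libraries against 2, no exact permutation test can go below p = 0.333, and no test was made on the sums. In bulk RNA, fewer cells of a type and less RNA per cell cannot be told apart.

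**Figure D1:**
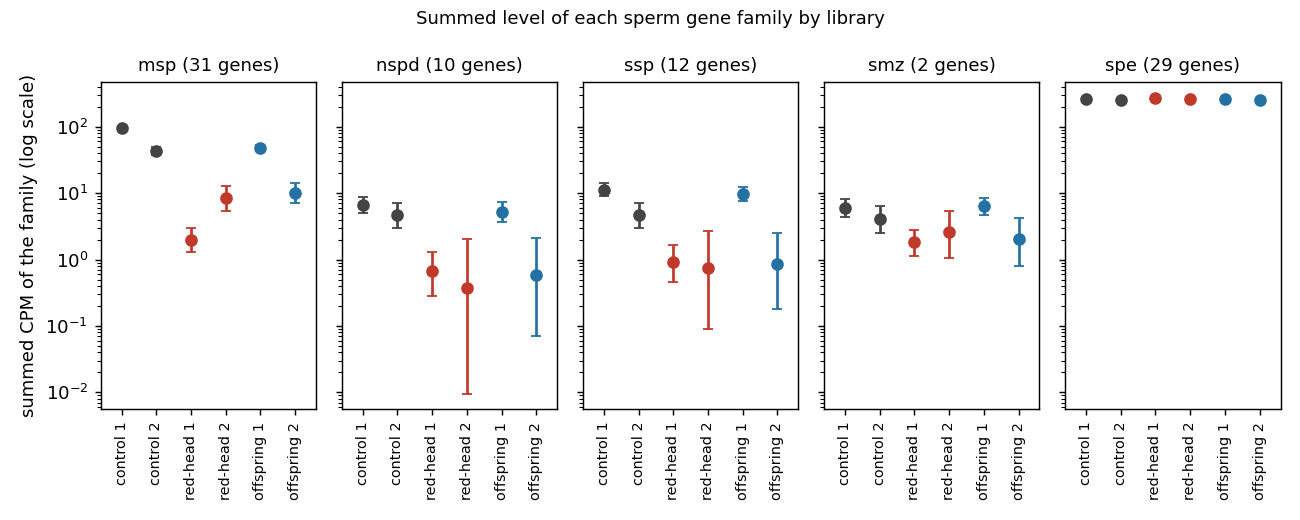
Summed TMM-scaled CPM of each sperm gene family in each of the 6 libraries, on a log scale, with 95% exact Poisson intervals that cover counting error only. The msp sum is 95.0 and 43.1 CPM for control against 1.99 and 8.54 CPM for “red-head” libraries, nspd and ssp show the same order between these groups at lower levels, and the spe sum stays between 249 and 268 CPM in all 6 libraries.

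In the counts, the lower msp level of the “red-head” libraries was spread over the family and not confined to a few of the 31 genes. Because the handling of reads that fit several near-identical copies is not given, these per-gene values cannot show which copies were lower. All 31 had at least 1 read in each control library, against 15 and 14 of them in “red-head” and 29 and 21 in offspring libraries. Among the 28 genes of 384 nucleotides, the mean per gene was 24.5 ± 7.97 reads in control replicate 1 (SD over genes, range 5 to 41) and 7.64 ± 3.30 in control replicate 2 (2 to 13), but 0.821 ± 0.945 in each “red-head” library (0 to 3). In offspring germlines it was 11.32 ± 3.15 (1 to 17) and 1.21 ± 1.13 (0 to 4). The variance over genes was 2.60 times the mean in control replicate 1, 1.43 times in control replicate 2 and 0.877 to 1.09 times in the other 4 libraries, where a ratio of 1 is what counting alone gives for equal levels. The genes on chromosome II summed to 39.7 and 14.3 CPM for control and to 0.581 and 3.34 CPM for “red-head” germlines. Those on chromosome IV summed to 55.4 and 28.8 CPM for control and to 1.41 and 5.20 CPM for “red-head” germlines, so both chromosomes showed the same order of groups.

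**Figure D2:**
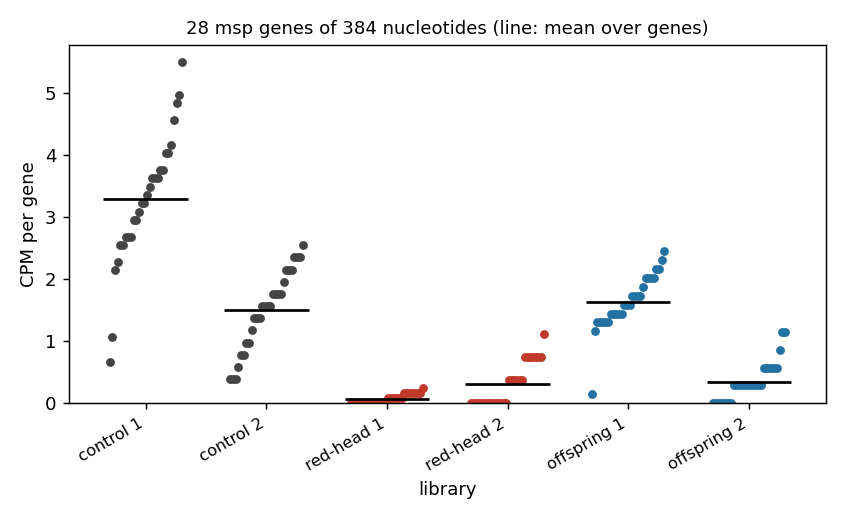
CPM of each of the 28 msp genes of 384 nucleotides in each library, where a point is a gene, genes are sorted by level within the library and the black line is the mean over genes. The cloud of genes as a whole is highest in control replicate 1 (mean 24.5 reads), intermediate in control replicate 2 and offspring replicate 1, and lowest in “red-head” replicate 1 (mean 0.821 reads).

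Among single msp genes, msp-31 had the most reads, 41 and 7 in control, 0 and 2 in “red-head” and 15 and 3 in offspring libraries. For msp-50 the reads were 37 and 11, 1 and 0, and 12 and 0 in the same order, for msp-33 they were 36 and 5, 2 and 1, and 14 and 1, and for msp-19 they were 27 and 11, 2 and 1, and 10 and 4. In these 4 genes both “red-head” values were below both control values once scaled. The genes msp-10 (20 and 8 reads in control, 12 and 2 in offspring) and msp-81 (19 and 9, 14 and 2) had no read in either “red-head” library. With 3 reads over the group put in place of 0, the ratio of control to “red-head” was 10.97-fold for each. It was 11.4-fold for msp-56 (22 and 7 reads in control), which had no “red-head” read and did not pass the filter. These ratios leave out counting error. The lower ends of the exact intervals for counting error were 8.34-fold for msp-10 and msp-81 and 8.66-fold for msp-56. The full-length gene msp-142 had 8 and 5 reads in control, 0 and 1 in “red-head” and 9 and 0 in offspring libraries. The shorter genes msp-58 and msp-74, both of 234 nucleotides, had 16 and 4 and 1 and 1 reads in control and none in “red-head” libraries. Only msp-64 overlapped between these groups, with 30 and 2 reads in control and 0 and 2 in “red-head” libraries, the last being the higher value once scaled.

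**Figure D3:**
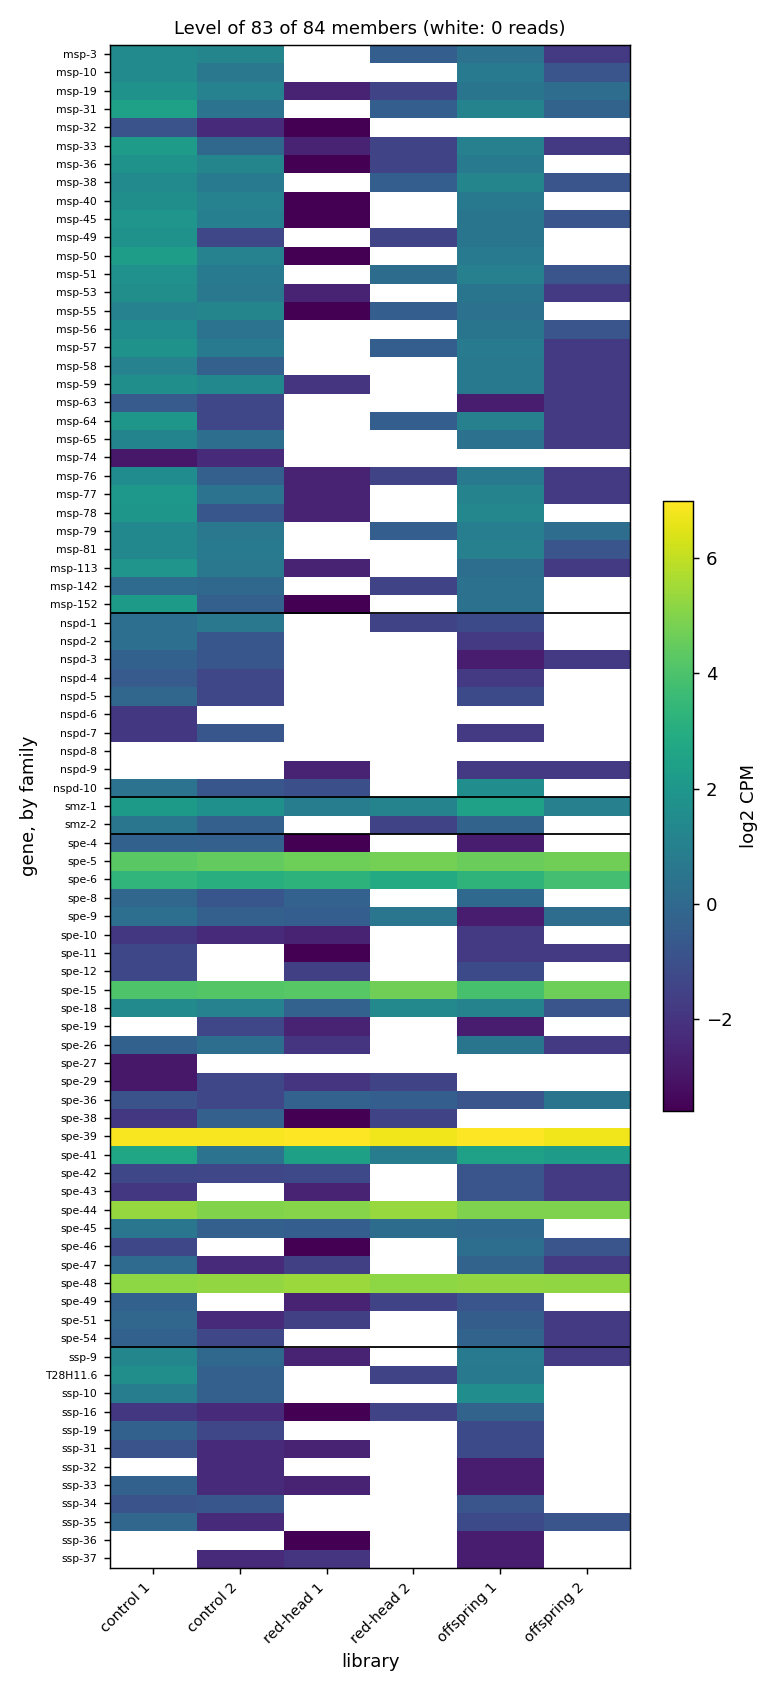
Level of 83 of the 84 genes (rows, by family) in each library (columns), as log2 CPM, with white for 0 reads. The msp, nspd and ssp blocks are mostly white or dark in the “red-head” columns and in offspring replicate 2, while spe-39, spe-48, spe-44, spe-5, spe-15 and spe-6 keep a high level in all 6 columns.

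In the fit across all genes, no single member passed the test between “red-head” and control germlines. The fit held 30 of the 84 genes, those kept by filterByExpr, which drops genes of low count (19 msp, 2 ssp, 1 smz, 8 spe and 0 nspd). Of these, 0 were called in either direction by edgeR's quasi-likelihood test at a Benjamini-Hochberg adjusted p of 0.05, as were 0.0% of the 8117 tested genes. By DESeq2 0 of the 30 were called as well, beside 0.394% of tested genes called lower and 0.776% higher. At an unadjusted p under 0.05, 19 of the 30 were lower and 0 higher by edgeR, against 3.86% of all tested genes lower and 3.79% higher. By DESeq2 14 were lower and 0 higher, against 2.86% and 3.18%. The msp genes that passed the filter did so through control and offspring reads, none through “red-head” reads, so the filter favoured genes lower in “red-head” libraries. Nothing is therefore read from that count, nor from the sign or size of their fold changes beside those of all tested genes. The msp genes that passed had fitted log2 fold changes of -6.79 to -3.11, with adjusted p of 0.270 to 0.716 in edgeR, beside a median of -0.01 and a median absolute value of 0.17 over all tested genes. Besides the msp genes named with their values, msp-3, msp-38, msp-51, msp-57, msp-59, msp-77 and msp-79 passed the filter and lay within these ranges. The lowest of these values were those of msp-10 and msp-81, which had no “red-head” read, so that they depend on the prior count of the fit and are no bound. The lowest adjusted p was that of msp-45 (28 and 10 reads in control, 1 and 0 in “red-head”), with a log2 fold change of -5.09 (SE 1.07) and an adjusted p of 0.270 in edgeR.

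The result of this test turned on the filter. When every gene with a read entered the fit, edgeR called 22 of the 83 members with a read lower and 0 higher, 20 of them msp genes, with ssp-10 and T28H11.6, beside 0.75% of 23478 genes called lower and 0.762% higher. The prior degrees of freedom, which weigh the common trend of the spread against a gene's own, were infinite in that fit and 4.33 in the filtered one. The adjusted p of msp-45 ranged from 0.00194 to 0.999 over 12 alternative settings, and its log2 fold change from -6.91 to -4.53.

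A count that needs no model gave the same order by family. Both “red-head” libraries lay below both control libraries, in scaled CPM, for 52 of the 84 genes, and above them for 3, whereas among the 18084 protein-coding genes with a read 16.7% lay below and 13.2% above. By family the 52 were 30 of 31 msp, 7 of 10 nspd, 8 of 12 ssp, 2 of 2 smz and 5 of 29 spe genes. The spe genes included spe-4, spe-10, spe-26 and spe-54, each with 1 to 6 reads per control library, and the 3 genes with higher values were spe-5, spe-15 and spe-36. Scaled by plain library size, which was chosen after seeing the data, the counts were again 52 and 3.

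**Figure D4:**
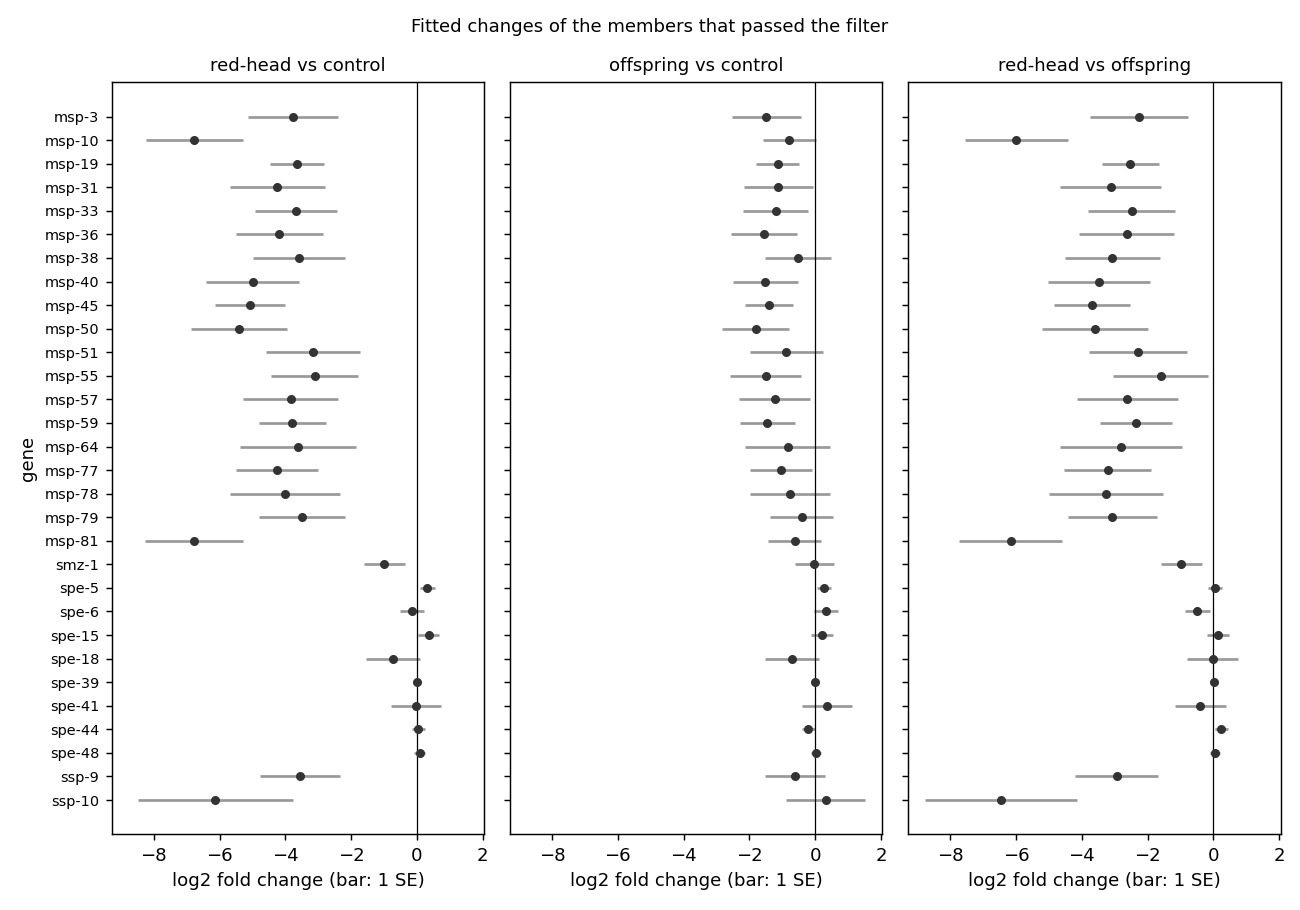
Fitted log2 fold change of each of the 30 genes that passed the filter, with bars of 1 SE, in the 3 contrasts of the edgeR fit. The msp and ssp genes lie at -6.79 to -3.11 in “red-head” against control, the spe genes at -0.73 to 0.36, and the msp genes at -1.81 to -0.41 in offspring against control.

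The nspd peptides, too few in reads for any to pass the filter, had the same order of groups as the msp genes. In summed CPM the controls had 6.72 and 4.71, the “red-head” libraries 0.665 and 0.371, and the offspring libraries 5.21 and 0.575, and the pooled control level was 9.66-fold that of “red-head” (95% exact interval for counting error 4.82 to 21.96). Without “red-head” replicate 1 it was 15.9-fold, with an interval of 2.77 to 636. Of the 8 nspd reads in “red-head” replicate 1, 6 were those of nspd-10, which had 10 and 3 reads in control, 6 and 0 in “red-head” and 21 and 0 in offspring libraries. The next most abundant, nspd-1, had 9 and 8, 0 and 1, and 3 and 0 reads, and nspd-2 had 9 and 3, 0 and 0, and 2 and 0. Without nspd-10 the “red-head” mean was 0.269 rather than 0.518 CPM. The gene nspd-8 had no read in any library, and nspd-9 had none in control but 2 and 0 in “red-head” and 2 and 1 in offspring libraries.

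The ssp genes gave the same order, with summed CPM of 11.29 and 4.71 for control, 0.914 and 0.743 for “red-head” and 9.70 and 0.862 for offspring libraries, and a pooled ratio of control to “red-head” of 9.76-fold (5.47 to 18.9, counting error). Without control replicate 1 that ratio was 5.33-fold (2.61 to 11.4). Of the ssp genes, ssp-10 had 14 and 4 reads in control, none in “red-head” and 21 and 0 in offspring libraries. With 3 reads over the group put in place of 0, its ratio of control to “red-head” was 7.05-fold, which leaves out counting error. The close relatives of ssp-10, T28H11.6 (23 and 4, 0 and 1, 11 and 0 reads) and ssp-9 (18 and 5, 2 and 0, 12 and 1 reads), had the other highest sums. The Ensembl annotation gives the symbol ssp-9 to both E03H12.10 and T28H11.6, so the latter is called here by its sequence name. The fitted log2 fold change of ssp-9 in “red-head” against control was -3.56 (SE 1.21), with an adjusted p of 0.516 in edgeR. By contrast ssp-16 had 2 and 1, 1 and 1, and 6 and 0 reads, in which the groups overlapped.

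Both smz genes had lower values in “red-head” than in control germlines, and their ratio was the smallest of the 4 families so far. Reads of smz-1 numbered 34 and 17 in control, 22 and 6 in “red-head” and 38 and 7 in offspring libraries, and its log2 fold change in “red-head” against control was -0.9997 (SE 0.62, adjusted p = 0.785 in edgeR). Reads of smz-2 numbered 11 and 4, 0 and 1, and 6 and 0. The summed level of the pair was 6.05 and 4.12 CPM, 1.83 and 2.60 CPM, and 6.37 and 2.01 CPM in the 3 groups, and the pooled ratio of control to “red-head” was 2.67-fold (1.70 to 4.29, counting error), and 2.02-fold without “red-head” replicate 1, with an interval of 0.930 to 5.23 that includes 1.

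The summed level of the spe genes overlapped between the groups. It was 262 and 249 CPM for control, 268 and 256 CPM for “red-head” and 263 and 254 CPM for offspring libraries, and the pooled ratio of control to “red-head” was 0.966 (0.922 to 1.01, counting error). Most of the sum came from 8 genes that passed the filter, with 241 to 261 CPM per library, and spe-39 alone gave 117 and 119 CPM for control, 127 and 110 CPM for “red-head” and 126 and 109 CPM for offspring libraries. SPE-39 is a conserved protein of vesicle trafficking that acts in many cell types. Its log2 fold change in “red-head” against control was 0.00 (SE 0.12, adjusted p = 0.996 in edgeR).

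Levels of different genes were compared per length, as CPM per kilobase (RPKM) on the longest transcript. On that scale spe-39 stood highest of all 84 genes, at 57.8 to 67.4 RPKM over the 6 libraries, followed by spe-48 at 28.9 to 33.2 RPKM and spe-44 at 19.004 to 25.1 RPKM. The last encodes a transcription factor that directs sperm gene expression in developing spermatocytes, and its 2 control values, 24.2 and 19.6 RPKM, overlapped those of “red-head” (20.4 and 25.1) and lay above those of offspring germlines (19.004 and 19.04). Next came spe-5, a subunit of the vacuolar proton pump, at 11.8 and 13.2 RPKM in control, 14.9 and 16.2 RPKM in “red-head” and 14.2 and 15.7 RPKM in offspring libraries. Control values of spe-5 were below all others, but the log2 fold changes were 0.32 (SE 0.22, adjusted p = 0.820 in edgeR) and 0.26 (SE 0.22, adjusted p = 0.999). The casein kinase I gene spe-6 had 5.85 to 11.1 RPKM, and the myosin VI gene spe-15 had 4.32 and 4.54 RPKM in control, 4.87 and 6.59 RPKM in “red-head” and 3.84 and 6.51 RPKM in offspring libraries. The highest value of spe-6 and the lowest of spe-15 both belonged to offspring libraries, and neither gene passed the test in any contrast. In the order of levels, spe-48 did not overlap its neighbours spe-39 and spe-44 in any library, whereas the ranges of spe-6 and spe-15 overlapped.

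**Figure D5:**
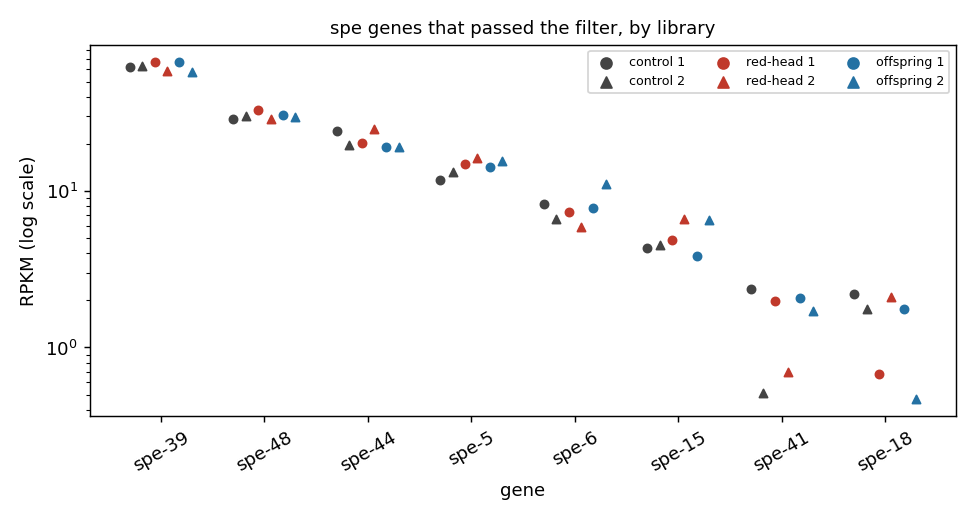
RPKM of the 8 spe genes that passed the filter, on a log scale, with a symbol per library. From spe-39 (57.8 to 67.4 RPKM) to spe-5 the genes keep 1 order in all 6 libraries, spe-6 and spe-15 overlap, with spe-15 the higher in “red-head” replicate 2, and spe-41 and spe-18 vary more, from 64 to 5 and from 20 to 2 reads.

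The other 2 spe genes that passed had few reads and a wide spread. The TRPC channel gene spe-41 had 47 and 7 reads in control, 64 and 5 in “red-head” and 38 and 16 in offspring libraries, and spe-18, needed to pack MSP into the fibrous bodies of spermatocytes, had 20 and 11, 10 and 7, and 15 and 2. Their log2 fold changes in “red-head” against control were -0.02 (SE 0.77) and -0.73 (SE 0.83). The groups overlapped for both genes.

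The 21 spe genes that did not pass the filter had 0 to 11 reads in any library. Together they had 92 and 40 reads in control, 75 and 12 in “red-head” and 77 and 18 in offspring libraries, or 12.4 and 7.85 CPM, 6.23 and 4.46 CPM, and 11.2 and 5.17 CPM in that order. The pooled ratio of control to “red-head” was 1.78-fold (1.35 to 2.37, counting error), and 1.33-fold (0.890 to 1.95) without control replicate 1, an interval that includes 1. Presenilin gene spe-4 had 6 and 4 reads in control, 1 and 0 in “red-head” and 1 and 0 in offspring libraries, and the kelch gene spe-26 had 6 and 6, 3 and 0, and 10 and 1. Each lay lower in “red-head” than in control libraries, but spe-26 did not do so in offspring replicate 1. Of genes for sperm activation, the tyrosine kinase gene spe-8 had 7 and 3, 10 and 0, and 7 and 0 reads and spe-27 had 1 read in all, in control replicate 1. Of genes for the meeting of sperm and egg, spe-9 had 9 and 4, 9 and 4, and 1 and 4 reads, spe-38 had 2 and 4, 1 and 1, and 0 and 0, and spe-42 had 3 and 2, 5 and 0, and 4 and 1. These 5 genes overlapped between “red-head” and control libraries, and differences between them and the msp genes in this respect were not tested. The palmitoyltransferase gene spe-10 (2 and 1, 2 and 0, 2 and 0 reads) and the egg activation gene spe-11 (3 and 0, 1 and 0, 2 and 1) never exceeded 3 reads.

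In offspring germlines the mean msp, nspd, ssp and smz sums lay between those of the other groups, and which library was read decided where. For nspd, ssp and smz, offspring replicate 2 was 0.941-, 0.977- and 1.02-fold the pooled “red-head” level, on 2, 3 and 7 reads. Pooled control was 1.13-, 0.888- and 0.826-fold the level of offspring replicate 1 in the same families. No member was called between offspring and control germlines by edgeR or DESeq2 at an adjusted p of 0.05, where edgeR called 0.123% of tested genes higher and 0.0% lower, and 0 of the 30 had an unadjusted p under 0.05 with either tool, beside 0.48% of tested genes lower and 0.813% higher in edgeR. In DESeq2 0.0123% of tested genes were called lower and 0.197% higher, and 0.345% and 0.739% had an unadjusted p under 0.05. Without the filter edgeR again called 0 members, beside 0.102% of genes lower and 0.187% higher. The msp genes that passed had log2 fold changes of -1.81 to -0.41 (adjusted p = 0.999 for each in edgeR). Pooled, control had 2.12-fold the msp level of offspring germlines (1.87 to 2.39, counting error), but 1.56-fold (1.37 to 1.77) without offspring replicate 2 and 7.35-fold (5.25 to 10.6) without offspring replicate 1. Without control replicate 1 it was 1.23-fold (1.04 to 1.46). Both offspring libraries lay below both controls for 23 of the 84 genes, 14 of them msp, and above for 5, beside 14.2% and 10.3% of protein-coding genes with a read. The 5 with higher values were nspd-9, spe-5, spe-36, spe-43 and spe-46. Within the tag of control replicate 1 and offspring replicate 1, the msp level differed 2.00-fold (1.75 to 2.29), while the ssp level (1.16-fold, 0.834 to 1.63) and the nspd level (1.29-fold, 0.823 to 2.04) did not differ beyond counting error.

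Set directly against each other, “red-head” germlines had less msp RNA than offspring germlines when libraries were pooled, but not within the shared tag. The pooled offspring level was 10.96-fold that of “red-head” (8.07 to 15.2, counting error). It was 3.15-fold (1.98 to 4.99) without offspring replicate 1, 4.09-fold (2.69 to 6.54) without “red-head” replicate 1 and 17.5-fold (11.60 to 27.7) without “red-head” replicate 2. Between offspring replicate 2 and “red-head” replicate 2, which share a tag, the ratio was 1.18 (0.677 to 2.09), at 10.1 and 8.54 CPM. No member was called by edgeR or DESeq2, where edgeR called 0.0123% of tested genes lower and 0.0% higher. At an unadjusted p under 0.05, 6 of the 30 were lower by edgeR, beside 6.0% of tested genes lower and 4.16% higher, and 4 were lower by DESeq2, beside 4.47% lower and 3.39% higher. At the adjusted threshold DESeq2 called 0.813% of tested genes lower and 0.616% higher. Without the filter edgeR called 4 lower (msp-10, msp-56, msp-81 and ssp-10), beside 0.958% of genes lower and 0.673% higher. Both “red-head” libraries lay below both offspring libraries for 24 of the 84 genes and above for 3, beside 12.2% and 13.7% of protein-coding genes with a read. The median log2 fold change of the tested members was -2.57 in the fit. The msp genes among them passed the filter through control and offspring reads, none through “red-head” reads. Nothing is therefore read from that median or from the counts of members at an unadjusted p. Within the tag, a median of 0.00 came from another measure, the log2 CPM of single libraries after a constant was added. With so few msp reads in both libraries, the constant and ties pull that median towards 0, so nothing is read from it. Control and “red-head” libraries share no tag, so for them the groups and whatever the tags mark cannot be told apart.

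Set against fixed levels of expression, few of the 84 genes reached 15 RPKM in any library. Genes above that level were called expressed in the study's methods. At 15 RPKM or more stood 3 or 4 genes per library, spe genes in each case. Below 1 RPKM lay 28 and 33 of the 84 genes in control, 75 and 64 in “red-head” and 31 and 62 in offspring libraries. A single read on a gene of 384 nucleotides was worth 0.967 RPKM in “red-head” replicate 2, so that such counts depend on depth there.

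A list of 23 symbols of spermatogenesis genes, fixed by known role with earlier results of these data in view, gave summed levels that overlapped between the groups. The annotation held 18 of them, all outside the 5 families, but not mfp-1, mfp-2, mfp-3, mpak-1 or trp-3. Of the 18, 7 were tested and 0 were called in any of the 3 contrasts by edgeR. The sum was 150 and 126 CPM for control, 131 and 135 CPM for “red-head” and 144 and 144 CPM for offspring libraries. Most of the sum came from zipt-7.1, a zinc transporter gene of sperm activation, at 82.4 to 98.3 CPM, and fog-1, a regulator of sperm fate that acts early in the germ line, at 29.2 to 37.7 CPM. The overlap of the sums therefore says little of the other genes in the list. The sperm-enriched phosphatase genes gsp-3 and gsp-4 had 6 and 7 and 13 and 4 reads in control, against 0 and 2 and 1 and 0 in “red-head” libraries. Both “red-head” libraries were below both controls for 5 of the 18 and above for 2, beside 16.7% and 13.2% of protein-coding genes with a read. The 5 were gsp-3, gsp-4, comp-1, cpb-2 and cylc-2. The 2 were fog-3 (2 and 2 reads in control, 11 and 2 in “red-head”) and elt-1 (25 and 13, 44 and 12), both in scaled CPM.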

How the data were processed

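The authors mapped single-end reads of 50 nucleotides, from rRNA-depleted RNA, with TopHat2 against the transcriptome of WS220, and the deposited values are HTSeq's raw, whole-number read counts per gene (versions not given in the sources used here). Summary rows were kept out of library sizes: reads on no gene made up 10.7% to 15.2% of each table and ambiguous reads 1.59% to 2.15%. A deposited table of the authors' own comparisons (mean levels, fold changes, adjusted p-values) was not used.

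Gene names were matched to Ensembl release 115 (44936 of 45461), used for symbols, chromosomes and longest-transcript lengths but not coordinates, since its build differs. Counts were tested in R 4.3.3 with edgeR 4.0.16 (filterByExpr, TMM, glmQLFit and glmQLFTest on all 6 libraries, Benjamini-Hochberg adjustment at 0.05), after the scripts were tested on simulated data. The SE of a log2 fold change is its size divided by the root of F. CPM were scaled by TMM, and RPKM are these CPM per kilobase. Poisson intervals of sums and conditional binomial intervals of ratios are exact, at 95%, and cover counting error only.

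Alternatives were DESeq2 1.42.0, RLE scaling, plain library size, no filter, 10 reads in every library, a replicate block, fits of the 4 libraries compared, a threshold of 0.1, shared tags, sums without the top gene, and each library left out. Genes named were those that passed the filter, the 3 with most reads per family, and those of known role. Other genes named, for an overlap or the lack of one, a zero, a change of sign, or a call without the filter, were chosen after their values were seen. Members and lists were chosen with earlier results of these data known. 1 gene is not reported here by name.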

Additional observations from a re-analysis of the deposited data

How the results depend on the processing

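The count of members called moved only with the filter, but the settings did not all test the same members. Where both libraries of each compared group were kept, it stayed at 0 in all 3 contrasts, except without a filter. There edgeR called 22 in “red-head” against control and 4 in “red-head” against offspring germlines, with 83 tested. With 10 reads required in every library only 6 members were tested, spe-5, spe-6, spe-15, spe-39, spe-44 and spe-48. That setting could therefore call no msp, nspd, ssp or smz gene. The fit of 4 libraries tested 9 members in “red-head” against offspring, where the main fit tested 30. Genes called in all moved more. In “red-head” against control there were 0, against 95 with DESeq2, 355 without a filter, 7 with the replicate block, 8 in the fit of 4 libraries, and 0 to 54 with a library left out. In offspring against control there were 10, against 17 with DESeq2, 4 by library size only, 68 without a filter, and 4 to 14 with a library left out. In “red-head” against offspring there was 1, against 7 at a threshold of 0.1, 116 with DESeq2, 6 with RLE scaling, 3 by library size only, 383 without a filter, 6 with 10 reads in every library, 7 with the replicate block, 5 in the fit of 4 libraries, and 0 to 69 with a library left out. The cause was not tested.

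The background for libraries that do not overlap was taken over protein-coding genes, a choice made after its values were seen. Over all 23478 genes with a read, 15.17% lay below and 11.04% above in “red-head” against control, 12.77% and 9.03% in offspring against control, and 10.79% and 11.59% in “red-head” against offspring germlines.

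Deviations of same-numbered libraries from their group means correlated at -0.09 for control and “red-head” and at 0.03 for “red-head” and offspring. For control and offspring, whose replicate 1 libraries share a tag, the correlation was 0.39, and its source was not tested. The replicate block changed no call of a member. Beyond 39 changes of sign of fold changes within 1 SE of 0, signs turned where a library was left out. Log2 fold changes over the libraries left out ran from -2.001 to 0.21 for msp-31 in offspring against control (highest without control replicate 1). In “red-head” against offspring they ran from -3.42 to 3.05 for msp-36, -5.31 to 2.08 for msp-40, -5.43 to 2.09 for msp-50, -2.96 to 3.71 for msp-55 and -5.88 to 2.88 for msp-78, each highest without offspring replicate 1. Without the most abundant gene, mean CPM was 0.269 for nspd and 0.643 for ssp in “red-head”, 1.13, 0.186 and 0.435 for smz and 137, 144 and 141 for spe in control, “red-head” and offspring germlines, and the spe mean of offspring was 247 by library size only. How far the msp copies share 50-nucleotide stretches was not run, for want of a genome here. Depth limits single genes most: 3 reads stood for 1.10 CPM in “red-head” replicate 2, and the msp copies averaged 0.821 reads there.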

Other observations

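RefSeq symbols, tried after seeing the data, gave 89 protein-coding genes of the same 5 families, and 5 further genes that RefSeq lists as pseudogenes of these families were in the count tables. Among these, msp-71 had 10 and 2 reads in control, 1 and 1 in “red-head” and 5 and 0 in offspring libraries, and msp-52 had 16 and 0, 0 and 0, and 10 and 0. The reads of msp-52 were thus in control replicate 1 and offspring replicate 1 alone, the libraries whose names share a tag. The other 3, msp-37, msp-42 and nspd-11, had 0 or 1 read in any library.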
